A study of Mus musculus with 12 samples.

Results

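Germline and meiotic genes are 43 mouse genes whose known work is in germ cells: the piRNA pathway, meiotic chromosome structure, recombination and germ cell RNA control. They were taken from a list of symbols, not by any measured value, and the longest transcript model stood for each gene. All 43 were among the 22878 genes measured, all 43 had reads in at least 1 of the 12 libraries, and 33 had reads in every library. At or above 1 RPKM (reads scaled to exon length and library total) in at least 1 library were 26 of them, and 17 stayed under 1 RPKM throughout.

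The study sequenced polyadenylated RNA of mouse embryonic stem (ES) cells with the SUV420H2 enzyme (WT), lacking it (SUV420H2 KO, here KO), or labelled as lacking SUV420H1 and SUV420H2 (SUV420H1_H2 DKO, here DKO). Both enzymes methylate lysine 20 of histone H4. Every ES group was grown on gelatin with 1.5 µM of a GSK3 inhibitor to remove feeder cells, with 2 libraries a genotype. Each genotype had 1 library at day 8 and 1 at day 12 of differentiation, and the labels give the same 1.5 µM for these. The labels do not say whether a genotype's libraries are of separate cultures or clones, so p-values measure the spread between these libraries, which may be technical, and a difference between genotypes may be one between single lines. How the cells were differentiated, and how old the cultures were, the labels do not give.

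Reads in genes ranged from 22538336 to 26675600 a library. Suv420h2 was at 28.6 and 25.8 RPKM in the WT ES libraries, at 4.41 and 3.95 RPKM in KO and at 5.59 and 3.37 RPKM in DKO. Suv420h1 was not lower in the libraries labelled DKO (5.30 and 5.77 RPKM, against 3.78 and 4.18 RPKM in WT). Reads over a whole gene do not check the loss of single exons, so DKO below always means libraries labelled DKO. Summed over 10 ES cell markers such as Pou5f1, ES libraries held 1921 to 3405 RPKM, and 10 fibroblast markers, which feeder cells would carry, held at most 12.6 RPKM in them.

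In most somatic cells and in the early embryo, germline genes are kept silent, largely by DNA methylation of CpG-rich promoters and by a variant Polycomb complex holding E2F6, MGA and PCGF6 that binds E2F and E-box motifs. They are turned on in primordial germ cells and again as germ cells enter meiosis. Cultured ES cells express some of them at low levels. A piRNA is a small RNA that guides PIWI proteins to silence transposons in germ cells; the synaptonemal complex is the protein zipper that holds paired meiotic chromosomes; and meiotic cohesin is the ring that holds sister chromatids in meiosis.

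Promoter windows from RefSeq (GRCm38.p6, from 250 bases before to 50 bases after each annotated start) were found for 37 of the 43 genes, in 46 windows. Those missing were Tex11, Tex15, Tdrd6, Piwil2, Spo11 and Rnf17. The E-box searched was CACGTG, which reads the same on both strands, and the E2F motif was TCCCGC or its complement GCGGGA. Side by side the 2 motifs can share 1 base. An E-box was in 39.1% of the 46 windows and in 7.15% of all 32851 windows of the table, and the E2F motif in 41.3% and 20.0%. The median number of CpG dinucleotides in a window was 18.5 among these genes and 7 among all windows. Both motifs hold a CpG, and shares at equal CpG number were not compared. A match is a description of letters and not a binding site. Of 16 genes with a window that were higher in KO ES cells (values below), 10 held the E2F motif, 5 the E-box and 5 neither. Of the other 5 tested genes with a window, 4 held the E2F motif and 2 the E-box.

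Below are the 250 bases before the start of 7 genes on which the ES cell results turn: 6 with large differences between genotypes and Ddx4, whose order of genotypes was the opposite one. They are written 5′ to 3′ on the gene's strand, with the motifs in capitals. The windows lie at chr17:50293621-50293870 (Dazl, minus strand), chr11:121145893-121146142 (Tex19.1, plus strand), chr15:85131958-85132207 (Smc1b, minus strand), chr3:95559427-95559676 (Hormad1, plus strand), chr5:135350045-135350294 (Fkbp6, minus strand), chr7:35537716-35537965 (Tdrd12, minus strand) and chr13:112652311-112652560 (Ddx4, minus strand).
Dazl: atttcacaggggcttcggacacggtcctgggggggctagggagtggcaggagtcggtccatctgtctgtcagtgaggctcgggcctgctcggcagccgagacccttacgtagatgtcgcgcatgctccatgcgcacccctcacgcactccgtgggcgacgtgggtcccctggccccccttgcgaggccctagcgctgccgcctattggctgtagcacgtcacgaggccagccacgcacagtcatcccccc
Tex19.1: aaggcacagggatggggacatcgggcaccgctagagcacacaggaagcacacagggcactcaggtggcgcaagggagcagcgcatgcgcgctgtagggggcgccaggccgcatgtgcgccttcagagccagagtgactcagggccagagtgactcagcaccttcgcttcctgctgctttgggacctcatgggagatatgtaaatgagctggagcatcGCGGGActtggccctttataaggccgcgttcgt
Smc1b: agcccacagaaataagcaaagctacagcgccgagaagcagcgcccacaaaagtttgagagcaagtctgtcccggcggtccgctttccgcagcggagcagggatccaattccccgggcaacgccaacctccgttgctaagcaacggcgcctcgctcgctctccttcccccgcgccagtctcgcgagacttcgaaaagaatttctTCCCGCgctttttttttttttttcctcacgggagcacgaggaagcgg
Hormad1: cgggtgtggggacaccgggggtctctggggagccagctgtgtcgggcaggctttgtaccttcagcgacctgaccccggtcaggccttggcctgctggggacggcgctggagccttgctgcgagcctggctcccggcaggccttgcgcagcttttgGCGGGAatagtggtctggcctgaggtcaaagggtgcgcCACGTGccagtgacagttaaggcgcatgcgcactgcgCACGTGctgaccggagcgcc
Fkbp6: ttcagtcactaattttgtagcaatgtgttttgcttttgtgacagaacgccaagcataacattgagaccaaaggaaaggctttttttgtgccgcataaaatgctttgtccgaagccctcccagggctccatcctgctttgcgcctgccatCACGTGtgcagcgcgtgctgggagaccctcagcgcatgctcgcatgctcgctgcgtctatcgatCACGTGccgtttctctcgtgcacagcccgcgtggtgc
Tdrd12: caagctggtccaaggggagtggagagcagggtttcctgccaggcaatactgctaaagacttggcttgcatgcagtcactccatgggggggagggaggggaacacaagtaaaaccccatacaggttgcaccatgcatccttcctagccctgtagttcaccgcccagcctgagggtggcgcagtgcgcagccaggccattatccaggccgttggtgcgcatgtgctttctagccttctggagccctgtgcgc
Ddx4: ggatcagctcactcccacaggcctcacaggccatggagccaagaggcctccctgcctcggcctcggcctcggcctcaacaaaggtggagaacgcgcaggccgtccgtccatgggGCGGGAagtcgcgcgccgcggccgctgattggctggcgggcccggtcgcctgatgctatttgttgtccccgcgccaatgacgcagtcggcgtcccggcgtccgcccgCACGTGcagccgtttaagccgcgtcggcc
The E2F motif began 33 bases before the start in Tex19.1, 47 in Smc1b, 95 in Hormad1 and 136 in Ddx4. E-boxes began 57 and 20 bases before the start in Hormad1, 101 and 37 in Fkbp6 and 29 in Ddx4. Dazl, with 20 CpG dinucleotides in its 250 bases, and Tdrd12, with 6, held neither motif.

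In ES cells without SUV420H2, Tex19.1, Tuba3a, Hsf2bp and other germline genes were higher than in WT, 17 of the 24 that could be tested. Among the 17 were 9, Dazl and Smc1b included, that could be tested only because KO or DKO libraries reached 1 RPKM. Those 9 had to be higher in a mutant and support no direction. The other 8 were at 1 RPKM or more in both WT libraries. Of these 17, 14 were not higher than WT in the libraries labelled DKO, where 7 were lower; of all 2827 genes higher in KO, 55.5% were not higher in DKO and 24.5% were lower. Both comparisons use the same WT libraries. The summed level of the 43 genes was 85.7 and 84.7 RPKM in WT, 217 and 224 RPKM in KO and 55.7 and 54.2 RPKM in DKO ES cells. The 3 groups did not overlap, with KO high and DKO low. Tex19.1 made up 22.3% and 23.6% of the sum in WT, 29.8% and 30.4% in KO and 8.23% and 6.96% in DKO. Without Tex19.1 the sums were 66.6 and 64.8 RPKM in WT, 152 and 156 RPKM in KO and 51.1 and 50.4 RPKM in DKO, in the same order. In the WT libraries 14 and 14 of the genes reached 1 RPKM, in KO 23 and 22, and in DKO 10 and 12. As these are bulk samples, more cells with a transcript and more of it per cell cannot be told apart.

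**Figure D1:**
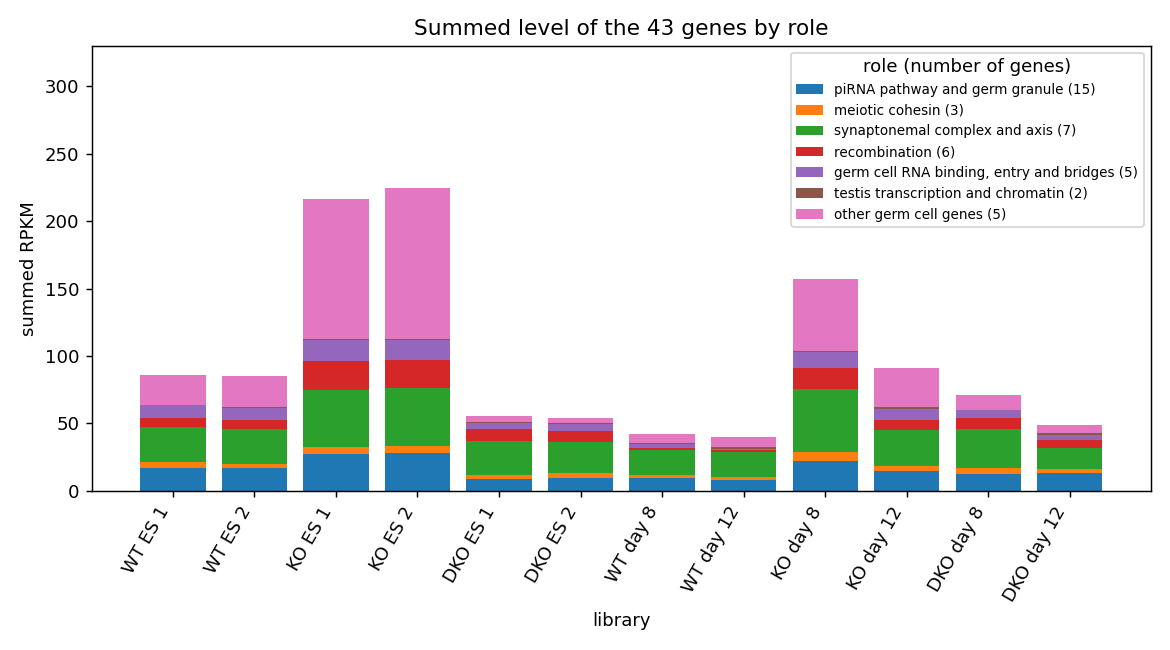
Stacked bars give the summed RPKM of the 43 genes in each of the 12 libraries, coloured by role with the number of genes per role. The KO ES bars reach 217 and 224 RPKM, against 85.7 and 84.7 RPKM in WT and 55.7 and 54.2 RPKM in DKO, and at days 8 and 12 KO is again the tallest genotype.

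Tests used edgeR's quasi-likelihood fit over genes that reached 1 RPKM in 2 or more of the libraries fitted. A gene was called higher or lower at an adjusted p (Benjamini-Hochberg over all genes tested) under 0.05, and SE is the standard error of the log2 fold change. Of the 43 genes 24 passed in ES cells. For KO against WT 17 were called higher, 3 lower and 4 neither, and of all 12044 genes tested 42.7% were called, 23.5% higher and 19.22% lower. For DKO against WT 4 were higher and 9 lower, where 63.9% of all genes were called, 32.2% higher and 31.7% lower, so the share of germline genes called lower was close to that of all genes. For DKO against KO 3 were higher and 17 lower, where 67.3% of all genes were called, 33.3% higher and 34.1% lower. These comparisons share libraries, so their values only stand side by side.

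How a gene passed the filter bears on those counts. In both WT libraries 14 of the 24 genes were at 1 RPKM or more, and of these KO had 8 higher and 3 lower than WT, and DKO 1 higher and 7 lower. For DKO against KO the same 14 had 2 higher and 9 lower. Over these 14 the median log2 fold change was 0.62 in KO and -0.52 in DKO, and over all 10765 genes that met the same condition -0.04 and -0.06. Of those 10765 genes KO had 2121 higher and 2250 lower than WT, and DKO 3185 higher and 3631 lower. The other 10 passed only through KO or DKO libraries and so had to be higher in a mutant. Those that passed through KO libraries alone also had to be lower in DKO than in KO. For DKO against KO these 10 had 1 higher and 8 lower. In no comparison do they support a direction. With no filter and no test, both KO libraries stood above both WT libraries for 26 of 42 genes with reads (61.9%, against 34.6% of all genes) and below them for 7 (16.7% against 33%). Both DKO libraries stood above WT for 8 of 41 (19.5% against 34.9%) and below for 21 (51.2% against 36.7%). Both DKO libraries stood below both KO libraries for 27 of 42 (64.3% against 37.9%). Without KO ES replicate 1 or 2 the genes called higher in KO numbered 7 and 10, and those lower in DKO than in KO 8 and 9. With 1 KO library 6 of the 17 genes higher in KO no longer passed the filter. Without WT ES replicate 1 or 2 only 1 gene was called lower in KO.

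**Figure D2:**
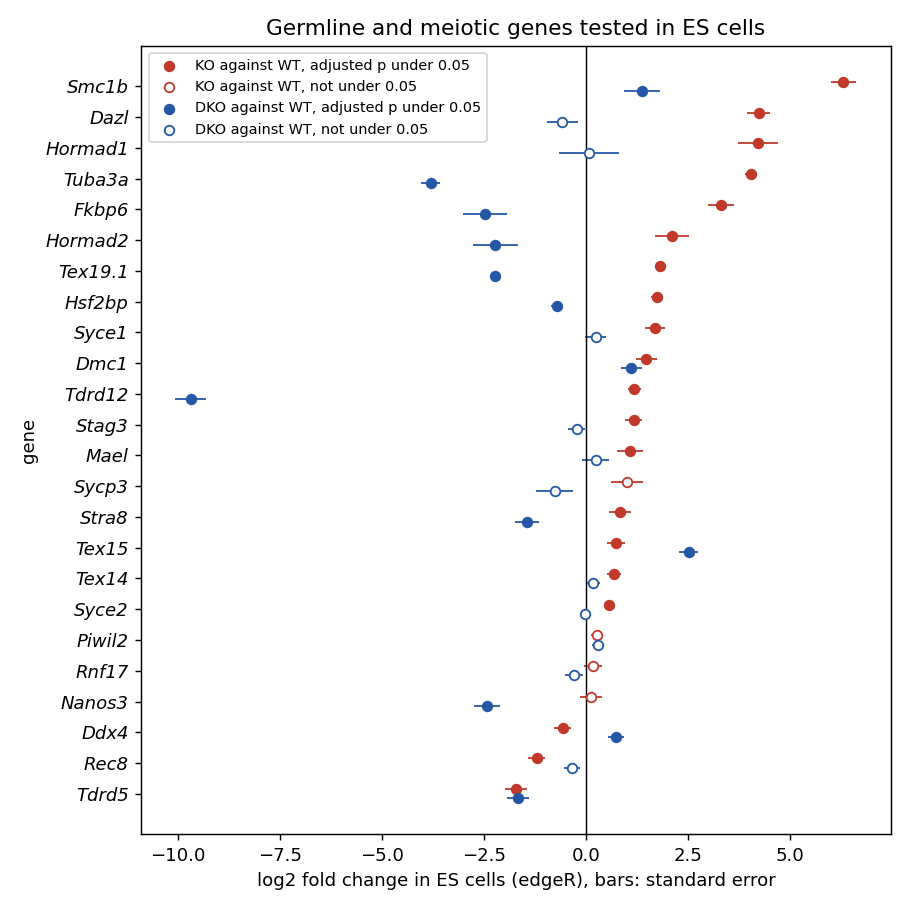
Points give the edgeR log2 fold change of KO against WT (red) and of DKO against WT (blue) in ES cells for the 24 genes tested, bars the standard error, and filled points an adjusted p under 0.05. Red points lie right of 0 for 21 genes, up to 6.30 for Smc1b, which passed the filter only through KO libraries. Blue points spread on both sides, and that of Tdrd12 at -9.69 rests on 1 read in DKO and is no bound.

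Among piRNA pathway and germ granule genes, Tdrd12 and Fkbp6 showed the widest range between genotypes. Tdrd12, a Tudor protein of piRNA production, was at 7.37 and 6.80 RPKM in WT, 15.3 and 16.04 RPKM in KO and 0.0148 and 0 RPKM in DKO ES cells. The groups did not overlap, and DKO was all but empty, with 1 read over both libraries against 1075 in WT and 2335 in KO. KO was higher than WT (log2 change 1.18 with SE 0.15, edgeR adjusted p = 6.4e-05). WT was 1087-fold above DKO by the ratio of read shares, with a 95% exact interval of 195 to 42960 that covers counting error only, and DKO was called lower (edgeR adjusted p = 2.3e-09). Fkbp6, a co-chaperone of the piRNA pathway, was at 0.327 and 0.316 RPKM in WT, 2.79 and 3.43 RPKM in KO and 0.0518 and 0.0591 RPKM in DKO. KO stood above WT and WT above DKO with no overlap, though WT rested on 21 reads in each library and DKO on 3 and 4. The rise in KO (log2 change 3.31 with SE 0.32, edgeR adjusted p = 7.7e-06) and the fall in DKO (log2 change -2.48 with SE 0.53, edgeR adjusted p = 0.0014) both passed. Fkbp6 was tested only because KO libraries reached 1 RPKM, so it had to be higher there.

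Mael, the germ granule protein Maelstrom, was at 0.717 and 0.842 RPKM in WT, 1.67 and 1.51 RPKM in KO and 0.685 and 1.12 RPKM in DKO. Both KO libraries were above the other 4, while WT and DKO overlapped. Mael passed the filter only through mutant libraries and so had to be higher in a mutant. KO was higher than WT (log2 change 1.07 with SE 0.32, edgeR adjusted p = 0.018), a call lost without WT ES replicate 1 (adjusted p = 0.1), KO replicate 1 (adjusted p = 0.092) or KO replicate 2 (adjusted p = 0.065, all edgeR). Ddx4, the Vasa RNA helicase that marks germ cells, ran the other way, at 1.72 and 1.98 RPKM in WT, 1.23 and 1.18 RPKM in KO and 2.76 and 3.33 RPKM in DKO. DKO stood highest and KO lowest without overlap. Ddx4 fell in KO (log2 change -0.58 with SE 0.20, edgeR adjusted p = 0.035) and rose in DKO (log2 change 0.73 with SE 0.19, edgeR adjusted p = 0.0053). The fall in KO was lost on leaving out any of the WT or KO ES libraries (edgeR adjusted p from 0.064 to 0.23), and the rise in DKO without WT ES replicate 1 (0.06).

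Tdrd5, a Tudor protein needed for transposon silencing in spermatogenesis, was at 1.10 and 1.31 RPKM in WT, 0.379 and 0.333 RPKM in KO and 0.391 and 0.359 RPKM in DKO. Both mutants lay below WT and overlapped each other. Tdrd5 fell in KO (log2 change -1.72 with SE 0.27, edgeR adjusted p = 0.00026) and in DKO (log2 change -1.67 with SE 0.27, edgeR adjusted p = 0.00015). It lies on chromosome 1, whose tested genes had a median log2 fold change of -0.57 in KO and 0.12 in DKO; what part this had in its fall was not tested. Mael lies on the same chromosome. Piwil2, a PIWI protein, was at 2.27 and 2.10 RPKM in WT, 2.50 and 2.59 RPKM in KO and 2.92 and 2.38 RPKM in DKO. Rnf17, a Tudor protein of germ granules, was at 1.27 and 1.52 RPKM in WT, 1.68 and 1.36 RPKM in KO and 0.898 and 1.33 RPKM in DKO. Neither gene passed in any ES comparison: Piwil2 differed by 0.26 (SE 0.15) in KO and 0.28 (SE 0.15) in DKO from WT on the log2 scale, and Rnf17 by 0.16 (SE 0.22) and -0.30 (SE 0.23).

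The other 8 genes of this role, Tdrd1, Tdrd6, Tdrd7, Tdrd9, Piwil1, Piwil4, Asz1 and Mov10l1, did not pass in ES cells, where none reached 1 RPKM. Piwil4, a PIWI protein of fetal male germ cells, was at 0.667 and 0.629 RPKM in WT, 0.0649 and 0.109 RPKM in KO and 0.283 and 0.180 RPKM in DKO, and Tdrd1, a Tudor partner of PIWI proteins, at 0.561 and 0.320 RPKM in WT, 0.0907 and 0.0298 RPKM in KO and 0.246 and 0.354 RPKM in DKO. For both genes the KO libraries were the lowest of the 6 and had no overlap with WT, opposite to Tdrd12 and Fkbp6. Tdrd7 was at 0.130 and 0.126 RPKM in WT, 0.616 and 0.616 RPKM in KO and 0.123 and 0.106 RPKM in DKO, with both KO libraries above the rest.

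The 3 meiotic cohesin genes each did something different. Smc1b, the meiotic form of the SMC1 ring subunit, was at 0.0376 and 0.0260 RPKM in WT, 2.52 and 2.46 RPKM in KO and 0.0774 and 0.0867 RPKM in DKO. The WT libraries held 7 and 5 reads and the KO libraries 475 and 451. KO was 79.0-fold higher (log2 change 6.30 with SE 0.32, edgeR adjusted p = 4.5e-08). Smc1b passed the filter only through KO libraries and so had to be higher there. DKO was also higher than WT (log2 change 1.37 with SE 0.45, edgeR adjusted p = 0.018) on 13 and 17 reads, a call lost without WT ES replicate 2 (edgeR adjusted p = 0.12) or DKO ES replicate 2 (0.069) and in limma on log2(RPKM + 0.1) (0.13). Stag3, the meiotic STAG subunit, was at 0.920 and 0.740 RPKM in WT, 1.91 and 1.71 RPKM in KO and 0.734 and 0.673 RPKM in DKO. KO was high and did not overlap the others, and WT lay above DKO by a margin that did not pass (edgeR adjusted p = 0.35). It rose in KO (log2 change 1.16 with SE 0.20, edgeR adjusted p = 0.00056) and was lower in DKO than in KO (log2 change -1.39 with SE 0.20, edgeR adjusted p = 6.5e-05). Stag3 too passed only through KO libraries, so both directions were set by the filter. Rec8, the meiotic kleisin that closes the ring, was at 3.41 and 2.84 RPKM in WT, 1.35 and 1.27 RPKM in KO and 2.35 and 2.55 RPKM in DKO. Rec8 fell in KO (log2 change -1.21 with SE 0.21, edgeR adjusted p = 0.00049), where both libraries were the lowest of the 6, and was not called in DKO against WT (-0.34, SE 0.20, edgeR adjusted p = 0.15). Rec8 lies on chromosome 14, whose tested genes had a median log2 fold change of -0.53 in KO and 0.08 in DKO, as do Piwil2 and Rnf17; the part of this in its fall was not tested.

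Of the synaptonemal complex and chromosome axis genes, Syce1 and Syce2 rose in KO, and so did Hormad1 and Hormad2, which passed the filter only through KO libraries and so had to be higher there. Hormad1, an axis protein that monitors synapsis, was at 0.0431 and 0.0973 RPKM in WT, 1.32 and 1.27 RPKM in KO and 0.0637 and 0.0818 RPKM in DKO. It had 3 and 7 reads in WT, 93 and 87 in KO and 4 and 6 in DKO, so KO stood apart and the other 2 groups overlapped. The rise in KO (log2 change 4.20 with SE 0.49, edgeR adjusted p = 2.9e-05) was 4.89 on the log2 scale without WT ES replicate 2. Hormad2, its partner, was at 0.631 and 0.923 RPKM in WT, 3.27 and 3.23 RPKM in KO and 0.0358 and 0.276 RPKM in DKO. All 3 groups were separate, but the DKO libraries held 2 and 18 reads. Hormad2 rose in KO (log2 change 2.10 with SE 0.41, edgeR adjusted p = 0.0013) and fell in DKO (log2 change -2.22 with SE 0.55, edgeR adjusted p = 0.0036); the fall was -1.41 without DKO ES replicate 1 and -4.37 without replicate 2.

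Syce1 and Syce2, central elements of the complex, differed in level and in size of change. Syce1 was at 1.11 and 1.08 RPKM in WT, 3.19 and 3.72 RPKM in KO and 1.19 and 1.37 RPKM in DKO. Syce2 was at 22.96 and 22.97 RPKM in WT, 32.9 and 33.1 RPKM in KO and 23.7 and 21.1 RPKM in DKO, the highest of the 43 genes by RPKM in WT. In both, KO lay above the other groups. Syce1 rose in KO (log2 change 1.70 with SE 0.25, edgeR adjusted p = 0.00015), and Syce2 rose less (log2 change 0.56 with SE 0.12, edgeR adjusted p = 0.0018); neither was called in DKO against WT (edgeR adjusted p = 0.44 and 0.82). Sycp3, a component of the lateral element, was at 0.774 and 0.487 RPKM in WT, 1.26 and 1.20 RPKM in KO and 0.279 and 0.441 RPKM in DKO. Both KO libraries were above the rest, but the difference from WT missed the threshold (log2 change 1.004 with SE 0.39, edgeR adjusted p = 0.055), while DKO was lower than KO (log2 change -1.78 with SE 0.42, edgeR adjusted p = 0.0024). Sycp3 passed the filter only through KO libraries, so both directions were set by the filter. Sycp1, the transverse filament, and Sycp2 reached at most 0.152 and 0.0426 RPKM in any of the 12 libraries and were not tested.

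Of the recombination genes, Dmc1 and Tex15 were higher in both mutants, though both passed the filter only through mutant libraries. Hsf2bp, which helps bring BRCA2 to meiotic DNA breaks, was at 5.71 and 5.45 RPKM in WT, 18.3 and 18.03 RPKM in KO and 4.01 and 2.82 RPKM in DKO. The groups were separate, with KO high and DKO low. Hsf2bp rose in KO (log2 change 1.74 with SE 0.15, edgeR adjusted p = 2.6e-06) and fell in DKO (log2 change -0.71 with SE 0.15, edgeR adjusted p = 0.0013). Dmc1, the meiotic recombinase, was at 0.595 and 0.834 RPKM in WT, 1.92 and 1.94 RPKM in KO and 1.70 and 1.37 RPKM in DKO. WT was lowest and KO highest, and the mutants did not differ past the threshold (edgeR adjusted p = 0.19). Dmc1 rose in KO (log2 change 1.47 with SE 0.25, edgeR adjusted p = 0.00055) and in DKO (log2 change 1.11 with SE 0.26, edgeR adjusted p = 0.0023). Tex15, required for meiotic recombination and for silencing transposons, was at 0.646 and 0.587 RPKM in WT, 1.14 and 0.844 RPKM in KO and 2.76 and 4.18 RPKM in DKO. It was the one gene of the 24 tested for which DKO stood above KO and KO above WT, with no overlap. The larger rise was in DKO (log2 change 2.51 with SE 0.23, edgeR adjusted p = 1.4e-06), and that in KO (log2 change 0.73 with SE 0.23, edgeR adjusted p = 0.02) was lost without WT ES replicate 2 or KO ES replicate 1 (edgeR adjusted p = 0.064 and 0.2) and in limma on log2(RPKM + 0.1) (0.09). Spo11, which cuts DNA to start recombination, had no reads in any ES library, Msh4 reached 0.119 RPKM and Tex11 0.183 RPKM in ES cells.

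Of genes for germ cell RNA binding and entry into meiosis, Dazl changed most. Dazl, an RNA-binding protein that licenses germ cells for meiosis, was at 0.214 and 0.129 RPKM in WT, 3.03 and 3.22 RPKM in KO and 0.106 and 0.119 RPKM in DKO. KO stood far above the others (417 and 429 reads against 29 and 18 in WT and 13 and 17 in DKO). Dazl rose in KO (log2 change 4.23 with SE 0.29, edgeR adjusted p = 4.5e-07) and was not called in DKO against WT (-0.58, SE 0.38, edgeR adjusted p = 0.2). Dazl passed the filter only through KO libraries and so had to be higher there. Stra8, the retinoic acid target that starts meiosis, was at 2.27 and 1.67 RPKM in WT, 3.91 and 2.89 RPKM in KO and 0.827 and 0.609 RPKM in DKO. DKO lay below all others and KO above them. It rose in KO (log2 change 0.83 with SE 0.26, edgeR adjusted p = 0.022) and fell in DKO (log2 change -1.45 with SE 0.29, edgeR adjusted p = 0.00084), and the rise was lost without WT ES replicate 2 or KO ES replicate 1 (edgeR adjusted p = 0.19 and 0.18).

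Nanos3, an RNA-binding protein that keeps primordial germ cells alive, was at 4.20 and 4.34 RPKM in WT, 3.93 and 5.10 RPKM in KO and 0.593 and 0.960 RPKM in DKO. WT and KO overlapped, and DKO was low (log2 change -2.42 with SE 0.33, edgeR adjusted p = 3.8e-05). Tex14, needed for the bridges between germ cells, was at 2.62 and 2.63 RPKM in WT, 4.70 and 3.43 RPKM in KO and 2.69 and 3.15 RPKM in DKO. KO lay above WT and DKO, with replicate 1 well above replicate 2, and the rise (log2 change 0.67 with SE 0.17, edgeR adjusted p = 0.0071) was lost without KO ES replicate 1 (edgeR adjusted p = 0.1). Nanos2 had 2 reads in WT and 2 in DKO ES cells and none in KO. Taf7l, an X-linked TFIID subunit of male germ cells, did not pass in ES cells, at 0.0337 and 0.0651 RPKM in WT, 0.652 and 0.547 RPKM in KO and 0.871 and 0.447 RPKM in DKO. Its libraries in both mutants were above WT. The X-linked genes tested had a median log2 fold change of 0.91 in KO and -0.09 in DKO. Brdt, a bromodomain protein of spermatids, reached 0.101 RPKM in ES cells.

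Tex19.1 and Tuba3a were the 2 highest of the 43 genes in KO by RPKM. Tex19.1, a mammal-specific germline gene that restrains retrotransposons, was at 19.06 and 19.97 RPKM in WT, 64.6 and 68.3 RPKM in KO and 4.58 and 3.77 RPKM in DKO. The groups were far apart in the order KO, WT, DKO. It rose in KO (log2 change 1.81 with SE 0.12, edgeR adjusted p = 3.5e-07) and fell in DKO (log2 change -2.22 with SE 0.13, edgeR adjusted p = 3.9e-08). Tuba3a, an alpha-tubulin of testis, was at 2.50 and 2.53 RPKM in WT, 38.3 and 42.01 RPKM in KO and 0.144 and 0.205 RPKM in DKO. The order was the same, and KO was 16.4-fold above WT (log2 change 4.04 with SE 0.15, edgeR adjusted p = 3.2e-09) and DKO 14.04-fold below (log2 change -3.81 with SE 0.23, edgeR adjusted p = 6.5e-08). Tuba3b, a near-identical copy, was at 0.152 and 0.107 RPKM in WT, 0.874 and 0.774 RPKM in KO and 0 and 0 RPKM in DKO, with no reads in DKO, which at a floor of 3 reads per library is at least 3.20-fold lower than WT and at least 20.7-fold lower than KO. Reads shared between copies, such as Tuba3a and Tuba3b or Tex19.1 and Tex19.2, make the split uncertain. Chromosome 11, which holds Tex19.1, Tex14 and Hormad2, had a median log2 fold change of 0.12 in KO and -0.40 in DKO. Tex101, a surface protein of germ cells, and Slc25a31, an ATP carrier of mitochondria in sperm, reached at most 0.481 and 0.219 RPKM in ES cells.

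**Figure D3:**
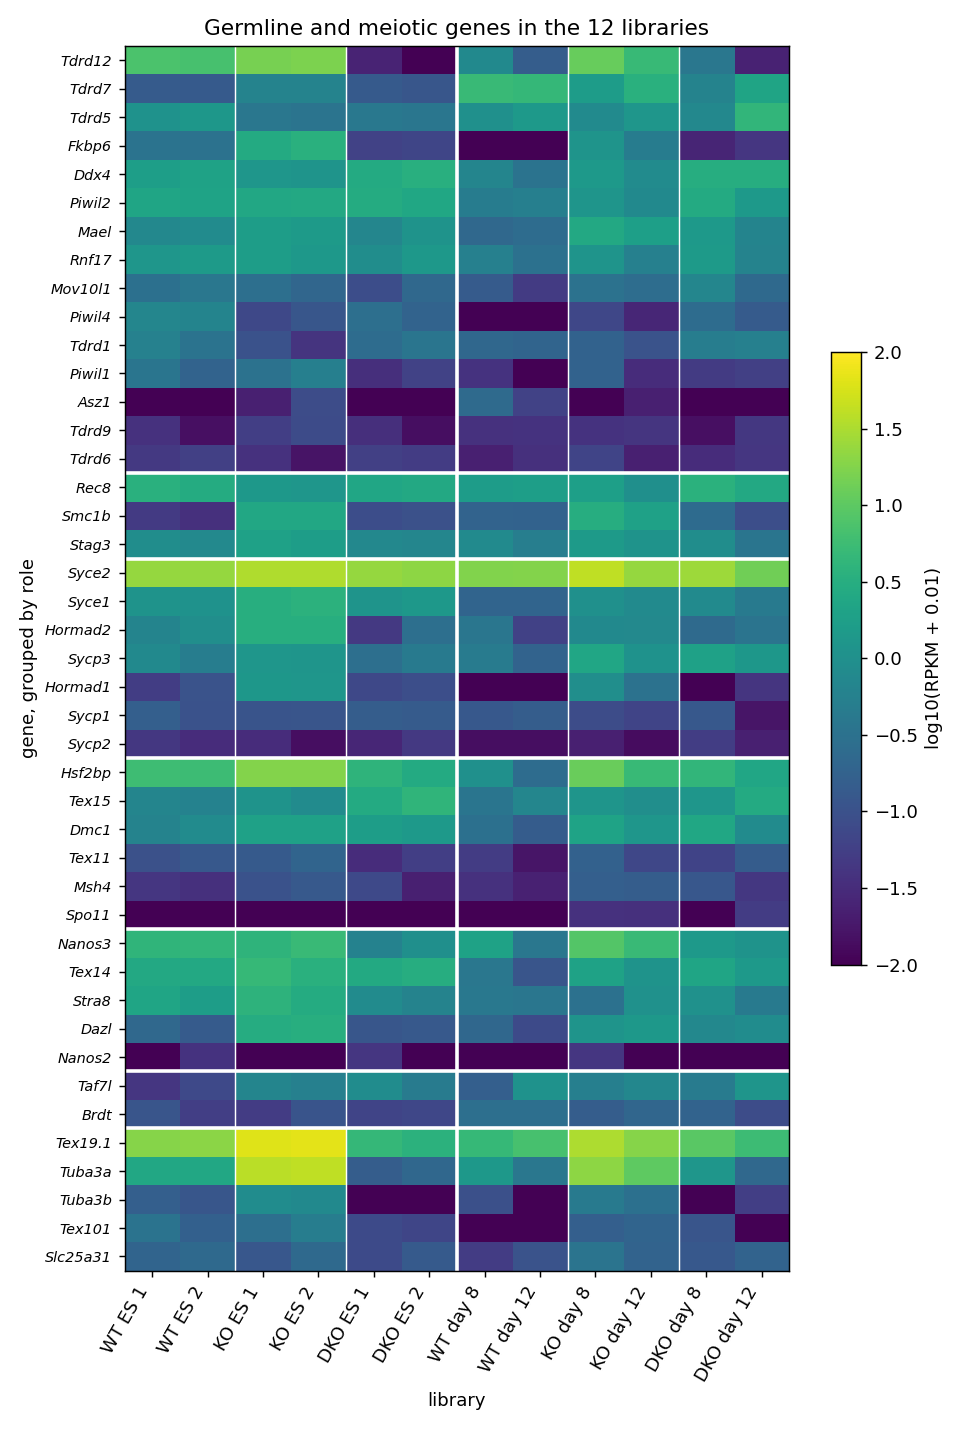
Colour gives log10(RPKM + 0.01) of each of the 43 genes (rows, in blocks by role) in each of the 12 libraries (columns); the darkest colour is 0 RPKM. The 2 KO ES columns are brightest for Tex19.1 (64.6 and 68.3 RPKM) and Tuba3a (38.3 and 42.0 RPKM), and the DKO ES columns are dark for Tdrd12, Fkbp6, Tuba3a and Tuba3b.

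By pattern in ES cells, 7 genes were called higher in KO and lower in DKO than in WT (Tex19.1, Hormad2, Stra8, Tdrd12, Tuba3a, Hsf2bp and Fkbp6), as were 5.76% of all genes tested. Another 7 were higher in KO, not called in DKO against WT and lower in DKO than in KO (Dazl, Mael, Tex14, Stag3, Syce1, Syce2 and Hormad1), as were 6.13% of all genes. Tex15, Smc1b and Dmc1 were higher in both mutants (10.4% of all genes), Tdrd5 lower in both (7.54%), and Ddx4 lower in KO and higher in DKO (4.94%). Rec8 was lower in KO alone, Nanos3 in DKO alone, and Sycp3 was called only between DKO and KO. These lists come from calls that share the WT or KO libraries, and no test compared one list with another. Of the first 7 genes Hormad2 and Fkbp6, and of the next 7 Dazl, Mael, Stag3 and Hormad1, passed the filter only through mutant libraries. So did Tex15, Smc1b, Dmc1 and Sycp3, which had to be higher in a mutant.

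Other genes of the same pathways came from a list of 59 with 48 present, of which 27 were tested in ES cells. In KO 10 were higher and 6 lower (median log2 fold change -0.14), beside the 23.5% higher and 19.22% lower among all genes. In DKO 5 were higher and 15 lower (median -0.52), beside 32.2% and 31.7% of all genes. No test compared these genes with the 43. Those with the smallest adjusted p in KO were Usp26 (5.64, SE 0.24, edgeR adjusted p = 8.2e-09), Ccnb1ip1 (-3.14, SE 0.19, adjusted p = 1.7e-07), Stk31 (3.77, SE 0.32, adjusted p = 3.1e-06) and Zp3 (2.73, SE 0.24, adjusted p = 3.4e-06). Of 38 tested regulators of germline genes, such as DNA methyltransferases and the E2F6 and PCGF6 complex, 15 were higher and 6 lower in KO, and 10 higher and 18 lower in DKO, where the same shares of all genes apply. Zfp42, a pluripotency-linked zinc finger gene, was lower in KO (-3.31, SE 0.12, edgeR adjusted p = 2.8e-09) and DKO (-3.05, SE 0.12, adjusted p = 2.7e-09). Dnmt3l, a cofactor of DNA methyltransferases, was higher in KO (1.52, SE 0.12, adjusted p = 1.4e-06), and Dnmt3b, a de novo DNA methyltransferase, was lower in DKO (-2.43, SE 0.13, adjusted p = 2e-08). Dnmt3b was at 18.4 and 18.2 RPKM in WT, 32.6 and 31.7 RPKM in KO and 3.15 and 3.60 RPKM in DKO, so that its groups stood in the order KO, WT, DKO.

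Primordial germ cell and two-cell-like markers had their highest sums in KO and their lowest in DKO ES cells, and somatic gonad markers their lowest in KO. Over 12 primordial germ cell markers the summed level was 201 and 197 RPKM in WT, 374 and 394 RPKM in KO and 108 and 84.7 RPKM in DKO. Of 11 tested, 8 were higher and 1 lower in KO, and 2 higher and 8 lower in DKO, beside the 23.5% higher and 19.22% lower of all genes in KO and the 32.2% and 31.7% in DKO; Nanos3 is on this list too. Dppa3, expressed in germ cells and in the early embryo, was at 1.73 and 1.001 RPKM in WT, 9.15 and 9.73 RPKM in KO and 0 and 0.101 RPKM in DKO. Over 16 two-cell-like markers the sums were 75.6 and 76.5 RPKM in WT, 120 and 104 RPKM in KO and 39.2 and 39.2 RPKM in DKO, with 2 and 2, 8 and 7, and 2 and 2 of the 16 at 1 RPKM or more. Most reads of this list in WT were of AU018091 (2349 and 2474) and Eif1a (8018 and 8370). Both were lower in DKO than in WT (log2 change -2.33 and -0.74, edgeR adjusted p = 1.8e-08 and 0.00015). The defining marker Zscan4f was at 0.0238 and 0 RPKM in WT, 2.69 and 1.96 RPKM in KO and 0 and 0 RPKM in DKO. Zscan4c, Zscan4e, Zscan4f and Gm4340 were not called in DKO against WT, while Gm5662 was called lower on 7 and 2 reads in WT. The lower DKO sum is therefore no measure of a two-cell-like state. Whether cells in these states carry the germline transcripts was not tested. Of 12 somatic gonad markers the sums were 90.1 and 94.5 RPKM in WT, 29.7 and 30.5 RPKM in KO and 118 and 99.998 RPKM in DKO, and the steroidogenic regulator Nr5a1 was at most 0.0327 RPKM in ES cells. Most of the WT sum was Inhbb, an inhibin and activin subunit that other cell types also make, at 61.8 and 62.1 RPKM in WT, 8.87 and 7.32 RPKM in KO and 21.6 and 14.1 RPKM in DKO. Inhbb was lower in KO (log2 change -2.90 with SE 0.17, edgeR adjusted p = 1.6e-07), whereas Foxl2, a regulator of ovarian somatic cells, was higher (log2 change 3.93 with SE 0.46, edgeR adjusted p = 3e-05). Of 6 gonad markers tested, 2 were higher and 3 lower in KO, and 3 higher and 1 lower in DKO.

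On differentiation Hsf2bp, Tex14, Tex19.1 and other germline genes fell in WT, and their calls differed between genotypes. The summed level at days 8 and 12 was 41.7 and 39.6 RPKM in WT, 157 and 91.0 RPKM in KO and 71.2 and 49.0 RPKM in DKO. Every differentiated library of WT and KO was below that genotype's ES libraries, and in DKO day 8 was above and day 12 below them. Each genotype was tested against its own ES libraries in 1 fit over 12 libraries with day as a term, with 26 of the 43 genes passing the filter. In WT 17 fell and 3 rose, where 61.1% of all 13429 genes tested were called, 29.8% lower and 31.2% higher. In KO 10 fell and 1 rose, where 29.3% of all genes were called, 13.5% lower and 15.8% higher. In DKO none fell and 6 rose, where 19.7% of all genes were called, 9.24% lower and 10.4% higher. In DKO 9 of the 26 had an unadjusted p under 0.05, and DESeq2 called 2 lower. The shares of all genes that met these conditions are not given here, so neither count is a result about the germline genes. Without DKO ES replicate 1 or 2 the rises in DKO numbered 1. Without KO ES replicate 1, KO ES replicate 2 or KO day 12 the falls in KO numbered 5, 2 and 6, and the single rise was lost.

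Here too the filter fixed some directions. Syce1, Hormad1, Hormad2 and Fkbp6 reached 1 RPKM in 2 or more libraries only among ES cells, so they had to be lower on differentiation in some genotype, and Taf7l and Tdrd7 only among differentiated cells, so they had to be higher. The calls of these 6 genes below support no direction. Of the 20 genes that reached 1 RPKM in 2 or more libraries of both states, with genotypes pooled, 14 fell and 1 rose in WT. In KO 8 fell and none rose, and in DKO none fell and 5 rose. Over these 20 the median log2 change was -1.87 in WT, -0.53 in KO and 0.02 in DKO, and over all genes tested it was 0.02, 0.02 and 0.01. Fewer genes were at 1 RPKM or more in both ES and both differentiated libraries of the genotype tested. These were 4 in WT, of which 2 fell, 13 in KO, of which 5 fell, and 8 in DKO, of which none was called. None of them rose.

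ES cell markers moved with these changes. Their summed level at days 8 and 12 was 288 and 234 RPKM in WT, 1900 and 886 RPKM in KO and 2831 and 1419 RPKM in DKO, so that the mutant libraries kept more of the ES markers. Pou5f1 was at 49.7 and 23.96 RPKM in WT, 434 and 183 RPKM in KO and 670.1 and 415 RPKM in DKO at days 8 and 12. Fibroblast and mesenchyme markers summed to 603 and 401 RPKM in WT, 34.4 and 178 RPKM in KO and 13.4 and 32.0 RPKM in DKO, and endoderm markers to 351 and 879, 36.0 and 367, and 45.3 and 515 RPKM. The part that remaining ES cells have in the germline levels of the mutants was not tested.

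In the genes that follow, values are given for day 8 and then day 12, beside the ES levels above. Tex14 was at 0.377 and 0.103 RPKM in WT, 2.04 and 1.12 RPKM in KO and 2.27 and 1.40 RPKM in DKO. It fell in WT (log2 change -3.78 with SE 0.30, edgeR adjusted p = 4.4e-05) and in KO (log2 change -1.58 with SE 0.27, edgeR adjusted p = 0.005), and in DKO the change was -0.79 (SE 0.26, edgeR adjusted p = 0.067). Hsf2bp was at 1.002 and 0.251 RPKM in WT, 12.1 and 4.92 RPKM in KO and 4.35 and 2.31 RPKM in DKO. Both WT libraries were below the other 4, and WT on average kept 11.2% of its ES level, KO 46.9% and DKO 97.5%. Hsf2bp fell in WT (log2 change -3.55 with SE 0.25, edgeR adjusted p = 2.8e-05) and in KO (log2 change -1.40 with SE 0.22, edgeR adjusted p = 0.0037), and in DKO it changed by -0.18 (SE 0.22, edgeR adjusted p = 0.6).

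Tdrd12 was at 0.770 and 0.139 RPKM in WT, 11.6 and 4.89 RPKM in KO and 0.381 and 0.0144 RPKM in DKO. It fell in WT (log2 change -4.51 with SE 0.54, edgeR adjusted p = 0.00023), while the KO change did not pass (-1.17, SE 0.45, edgeR adjusted p = 0.083). In DKO 29 reads over both days compare with 1 in ES cells, a ratio of 29.5 with a 95% exact interval of 4.88 to 1203, and 28 of the 29 were at day 8. The call of a rise (edgeR adjusted p = 0.038) was lost without DKO day 8 or either DKO ES library. Fkbp6 had no reads in the WT libraries, which at 3 reads per library is at least 7.63-fold lower than WT ES cells, and was at 1.17 and 0.467 RPKM in KO and at 0.0158 and 0.0335 RPKM in DKO. It fell in KO (log2 change -2.21 with SE 0.49, edgeR adjusted p = 0.016), a call lost without KO day 12; only KO libraries, those of ES cells and day 8, held 1 RPKM or more. Hormad1 likewise had no reads in WT (at least 1.80-fold lower than in WT ES cells) and was at 0.954 and 0.316 RPKM in KO, at least 15.9-fold above differentiated WT.

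Tex19.1 was at 4.82 and 6.86 RPKM in WT, 32.2 and 18.4 RPKM in KO and 9.51 and 5.57 RPKM in DKO. It fell in WT (log2 change -1.81 with SE 0.33, edgeR adjusted p = 0.002) and in KO (log2 change -1.60 with SE 0.33, edgeR adjusted p = 0.0098), and both differentiated KO libraries were above the differentiated WT and DKO ones. Its fall in WT was -1.11 without WT day 8 and -2.62 without WT day 12. Tuba3a was at 1.34 and 0.372 RPKM in WT, 20.6 and 10.1 RPKM in KO and 1.27 and 0.216 RPKM in DKO. Tuba3a fell in WT (log2 change -1.95 with SE 0.34, edgeR adjusted p = 0.0015) and KO (log2 change -1.61 with SE 0.31, edgeR adjusted p = 0.008) and rose in DKO (log2 change 1.65 with SE 0.41, edgeR adjusted p = 0.028), where only day 8 stood well above the ES level and the call was lost without it (0.79). Dazl was at 0.204 and 0.0688 RPKM in WT, 1.17 and 1.34 RPKM in KO and 0.719 and 0.864 RPKM in DKO. It rose in DKO (log2 change 2.72 with SE 0.48, edgeR adjusted p = 0.0088) and fell in KO (log2 change -1.47 with SE 0.43, edgeR adjusted p = 0.036), so that the 2 mutants came closer to each other, and WT did not change past the threshold (-0.51, SE 0.48, edgeR adjusted p = 0.38).

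**Figure D4:**
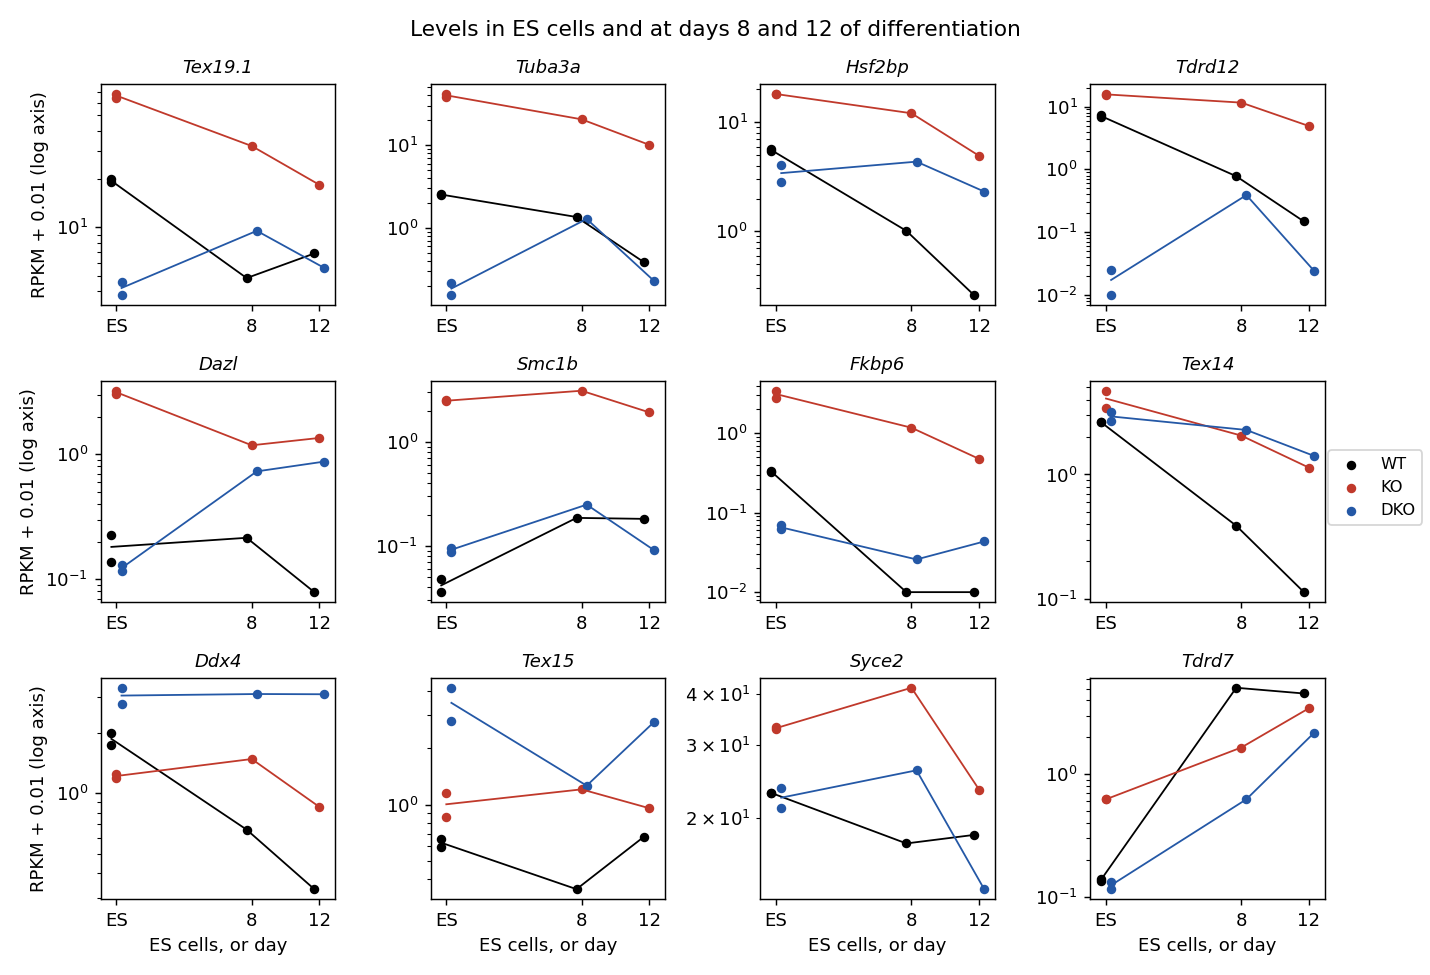
Each panel plots RPKM + 0.01 of 1 gene on a log axis for the 2 ES libraries and days 8 and 12 of each genotype (WT black, KO red, DKO blue), with lines through the ES mean. Tex14 and Hsf2bp in WT reach 0.103 and 0.251 RPKM at day 12, below every mutant library, while Dazl in DKO rises to 0.719 and 0.864 RPKM.

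Ddx4 was at 0.649 and 0.323 RPKM in WT, 1.47 and 0.845 RPKM in KO and 3.10 and 3.09 RPKM in DKO. It fell in WT (log2 change -2.13 with SE 0.29, edgeR adjusted p = 0.00043), and in DKO, where it was highest in ES cells, it changed by -0.05 (SE 0.27, edgeR adjusted p = 0.92). Piwil2 was at 0.472 and 0.531 RPKM in WT, 1.19 and 0.785 RPKM in KO and 2.80 and 1.43 RPKM in DKO and Rnf17 at 0.537 and 0.301 RPKM in WT, 1.15 and 0.535 RPKM in KO and 1.52 and 0.616 RPKM in DKO. Piwil2 fell in WT (log2 change -2.21 with SE 0.32, edgeR adjusted p = 0.00056) and KO (log2 change -1.56 with SE 0.31, edgeR adjusted p = 0.0084), and Rnf17 did so too, by 1.91 in WT (SE 0.32, edgeR adjusted p = 0.0011) and by 1.12 in KO (SE 0.31, adjusted p = 0.028). Neither was called in DKO (edgeR adjusted p = 0.31 and 0.54). Mael was at 0.216 and 0.247 RPKM in WT, 2.59 and 1.82 RPKM in KO and 1.43 and 0.634 RPKM in DKO. Mael fell in WT (log2 change -1.83 with SE 0.50, edgeR adjusted p = 0.012) and was not called in KO (adjusted p = 0.67) or DKO (adjusted p = 0.97, both edgeR); without WT day 8 the fall was -1.24 and lost its call.

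Of the Tudor genes, Tdrd7 was called higher in each genotype and Tdrd5 in DKO. Tdrd7, which is also used in the lens, was at 5.07 and 4.55 RPKM in WT, 1.64 and 3.45 RPKM in KO and 0.616 and 2.17 RPKM in DKO. Every differentiated library was above its genotype's ES level, and WT rose most (log2 change 5.17 with SE 0.45, edgeR adjusted p = 5.9e-05), beside rises in KO (log2 change 1.79 with SE 0.38, edgeR adjusted p = 0.011) and DKO (log2 change 3.31 with SE 0.43, edgeR adjusted p = 0.0029). It was also called higher over the 3 genotypes together (log2 change 3.44 with SE 0.55, edgeR adjusted p = 0.0023), but stayed under 1 RPKM in every ES library and passed only through differentiated ones. Tdrd5 was at 1.02 and 1.40 RPKM in WT, 0.817 and 1.24 RPKM in KO and 0.723 and 4.26 RPKM in DKO. It rose in DKO (log2 change 2.28 with SE 0.47, edgeR adjusted p = 0.015), with day 12 far above day 8, and without DKO day 12 the change was 1.23 and lost its call. Over the 3 genotypes together 6 genes were lower and 1 higher, where 35.8% of all genes were called, 15.7% lower and 20.1% higher. The 6 were Piwil2, Stra8 and Tex14 of the 20 genes, and Fkbp6, Hormad1 and Syce1, which passed only through ES libraries, and without DKO day 8 the count was 13.

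Of the meiotic cohesins, Smc1b was at 0.176 and 0.172 RPKM in WT, 3.11 and 1.92 RPKM in KO and 0.240 and 0.0808 RPKM in DKO. It rose in WT (log2 change 2.34 with SE 0.49, edgeR adjusted p = 0.0036) to 32 and 31 reads, and in KO it was not called (-0.19, SE 0.38, edgeR adjusted p = 0.73). Rec8 was at 1.59 and 1.72 RPKM in WT, 1.80 and 0.971 RPKM in KO and 3.53 and 2.57 RPKM in DKO, with a fall in WT (log2 change -1.01 with SE 0.32, edgeR adjusted p = 0.023), and Stag3 at 0.801 and 0.500 RPKM in WT, 1.49 and 1.11 RPKM in KO and 0.897 and 0.348 RPKM in DKO, with no call in any genotype. Syce1 was at 0.183 and 0.184 RPKM in WT, 1.002 and 0.801 RPKM in KO and 0.814 and 0.431 RPKM in DKO and fell in WT (log2 change -2.68 with SE 0.42, edgeR adjusted p = 0.00082) and KO (log2 change -2.11 with SE 0.38, edgeR adjusted p = 0.0063). Syce2 was at 17.3 and 18.1 RPKM in WT, 41.4 and 23.4 RPKM in KO and 26.1 and 13.4 RPKM in DKO, with KO day 8 the highest of all 12 libraries and DKO day 12 the lowest, and was not called in any genotype. Sycp3 was at 0.457 and 0.180 RPKM in WT, 2.32 and 1.08 RPKM in KO and 1.93 and 1.29 RPKM in DKO. Sycp3 fell in WT (log2 change -1.24 with SE 0.46, edgeR adjusted p = 0.046) and rose in DKO (log2 change 2.03 with SE 0.46, edgeR adjusted p = 0.019), on 98 and 62 reads at the 2 days. Hormad2, at 0.365 and 0.0502 RPKM in WT, 0.779 and 0.743 RPKM in KO and 0.230 and 0.330 RPKM in DKO, was not called in any genotype.

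Dmc1 was at 0.285 and 0.133 RPKM in WT, 2.08 and 1.25 RPKM in KO and 2.41 and 0.841 RPKM in DKO. The 2 WT libraries were the lowest, and Dmc1 fell in WT (log2 change -2.001 with SE 0.37, edgeR adjusted p = 0.0021) alone among the 3 genotype calls. Tex15, at 0.344 and 0.666 RPKM in WT, 1.19 and 0.946 RPKM in KO and 1.25 and 2.75 RPKM in DKO, was not called in any genotype. Stra8 was at 0.383 and 0.355 RPKM in WT, 0.304 and 1.06 RPKM in KO and 1.03 and 0.433 RPKM in DKO and fell in WT (log2 change -2.54 with SE 0.67, edgeR adjusted p = 0.011) and KO (log2 change -2.51 with SE 0.67, edgeR adjusted p = 0.025); the fall in KO was -1.58 without KO day 8, where it lost its call. Nanos3 was at 1.98 and 0.369 RPKM in WT, 8.51 and 5.17 RPKM in KO and 1.45 and 1.12 RPKM in DKO. Both KO libraries were above all others, and Nanos3 fell in WT (log2 change -2.28 with SE 0.50, edgeR adjusted p = 0.0046), by 1.60 without WT day 12. Taf7l, at 0.150 and 1.07 RPKM in WT, 0.517 and 0.695 RPKM in KO and 0.444 and 1.21 RPKM in DKO, rose in WT (log2 change 3.07 with SE 0.76, edgeR adjusted p = 0.008), mostly at day 12 with 92 reads against 13 at day 8, and passed only through differentiated libraries.

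The change on differentiation was also compared between genotypes as a difference of log2 changes, which both take the WT libraries as their base. For KO minus WT 6 of 26 genes were higher and 2 lower, where 16.3% of all genes were called, 9.07% higher and 7.24% lower. For DKO minus WT 14 were higher and 2 lower, where 42% of all genes were called, 21.1% higher and 20.8% lower. Of the 20 genes that reached 1 RPKM in both states with genotypes pooled, 5 were higher and 1 lower for KO minus WT. For DKO minus WT 13 were higher and none lower. Only Tex19.1, Rec8, Syce2 and Tdrd5 of these 20 were at 1 RPKM or more in both states of WT. Of these 4, Tex19.1 and Tdrd5 were called higher for DKO minus WT, and none was called for KO minus WT. Hsf2bp, Tex14 and Ddx4 were at 1 RPKM in both WT ES libraries but counted among the 20 through mutant differentiated libraries. Such entry favours a higher value, so their direction leans on this condition. A higher value means that the gene fell less, or rose more, than in WT. Hsf2bp differed by 2.15 in KO (SE 0.32, edgeR adjusted p = 0.0061) and by 3.37 in DKO (SE 0.32, adjusted p = 0.00025). For Tex14 the difference was 2.20 (SE 0.39, adjusted p = 0.01) and 2.99 (SE 0.39, adjusted p = 0.00084), and for Ddx4 1.85 (SE 0.40, adjusted p = 0.019) and 2.08 (SE 0.39, adjusted p = 0.0042). Tdrd7, one of the 6 genes with a direction set by the filter, rose less than in WT in both, by a difference of -3.38 (SE 0.55, adjusted p = 0.0084) in KO and -1.86 (SE 0.58, adjusted p = 0.033) in DKO. Smc1b differed in KO only by its own call (-2.53, SE 0.62, adjusted p = 0.03, against -1.57, SE 0.66, adjusted p = 0.089 in DKO), and the difference between the mutants was not tested. Without WT ES replicate 1 or 2 or KO ES replicate 1 the genes higher in KO minus WT numbered 2, without KO ES replicate 2 there was 1, and without WT day 12 there were 11.

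Between genotypes at the same stage of differentiation the design had 1 library per genotype and day, so the days stood in for replicates, with 2 residual degrees of freedom. On simulated counts this test found 2% of 2-fold and 26% of 4-fold changes. For KO against WT edgeR called none of 22 germline genes, nor any of 12896 genes (0%). Unadjusted p was under 0.05 for 12 of the 22 and for 3002 genes in all, DESeq2 called 11 of the 22 higher, where it called 14.2% of all genes, and limma on log2(RPKM + 0.1) 3. Shares of all genes are not given here for limma, nor for unadjusted p in the comparisons that follow. Those counts are no result about the germline genes. Only Tex19.1, Rec8, Syce2, Tdrd5 and Tdrd7 were at 1 RPKM or more in both WT libraries, with a median log2 difference of -0.24 beside -0.06 over all 11367 such genes. Each of the other 17 needed mutant libraries to pass, so their direction is no support. Among these 17 were Tdrd12 (4.61, SE 0.84, edgeR adjusted p = 0.1), Tuba3a (4.39, SE 0.53, adjusted p = 0.079), Hsf2bp (3.92, SE 0.35, adjusted p = 0.075) and Smc1b (3.76, SE 0.61, adjusted p = 0.088). Both KO libraries stood above both WT libraries for 29 of 43 genes (67.4%, against 28.3% of all genes) and below for 5 (11.6% against 21.1%).

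For DKO against WT 2 of 22 were called higher and none lower (2.18% of all genes were called, 1.52% higher and 0.659% lower), with 11 at an unadjusted p under 0.05 and 9 higher and 1 lower in DESeq2, which called 24.3% of all genes. Those called by edgeR were Hsf2bp (log2 change 2.72 with SE 0.33, edgeR adjusted p = 0.047) and Tex14 (log2 change 3.22 with SE 0.43, edgeR adjusted p = 0.049). Neither would have passed on its WT libraries, of which only day 8 reached 1 RPKM for Hsf2bp and none for Tex14, so their direction leans on the filter. Leaving out any differentiated library other than WT day 12 ended both calls, while without WT day 12 there were 4 higher. Both DKO libraries lay above both WT libraries for 22 of 42 genes (52.4% against 23.9%) and below for 4 (9.52% against 27.8%). For DKO against KO edgeR called none of the 22 (0.00775% of all genes, or 1 gene), with 8 at an unadjusted p under 0.05 and 6 lower and 1 higher in DESeq2, which called 9.12% of all genes. Both DKO libraries lay below both KO libraries for 15 of 43 genes (34.9% against 26.3%) and above for 7 (16.3% against 15.9%).

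Between day 8 and day 12 edgeR called none of 22 genes and none of all genes (0%), with 7 of the 22 at an unadjusted p under 0.05 and 3 lower at day 12 in DESeq2, which called 4.57% of all genes. Levels were higher at day 8 for 34 of 43 genes in KO, 23 of 37 in WT and 25 of 41 in DKO (79.1%, 62.2% and 61%, against 41.2%, 56.6% and 36.8% of all genes with reads). In KO the summed level at days 8 and 12 was 22.4 and 14.5 RPKM for piRNA genes, 15.7 and 7.34 RPKM for recombination genes and 46.5 and 26.4 RPKM for synaptonemal complex genes, while that of the testis transcription genes was 0.660 and 0.893 RPKM. These are single libraries with no test. The ES cell markers summed to 1900 and 886 RPKM in the same libraries.

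Among genes that never reached 1 RPKM, Piwil4 had 160 reads in WT ES cells and none in differentiated WT, at least 29.1-fold lower, against 45 reads in differentiated DKO. Mov10l1, a helicase that starts piRNA production, was highest in DKO day 8 (0.680 RPKM), and Msh4 and Slc25a31 in KO day 8 (0.154 and 0.342 RPKM). Asz1, a germ granule scaffold on mitochondria, had 18 and 4 reads in differentiated WT, 7 in KO ES cells, 1 in differentiated KO and none elsewhere. Spo11 had reads only in differentiated mutants, 2 and 2 in KO and 3 in DKO day 12, which is at most 0.0408 RPKM. Levels this low rest on few reads, and their absence elsewhere is not shown.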

How the data were processed

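The submitters' processing notes name Bowtie2 and the mouse build mm9. The counting program and its handling of strand and multiple matches are not given in the sources used here. For each transcript model the authors deposited a raw read count, its exon length, and an RPKM scaled by that length and the library's total. Models of 1 gene share reads, and 8 of the 43 genes have several. The 43 genes and all other lists were chosen with earlier results of these data known, and pathway lists were described by counts and medians without a test. Printed genes were those called in ES cells or on differentiation, and at most 4 of each other list by smallest adjusted p. A few more were named where they bear on a summed level. Values of other genes are given as ranges.

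Counts were tested with edgeR 4.0.16 (quasi-likelihood, TMM scaling, R 4.3.3), with 3 residual degrees of freedom in ES cells, 2 in differentiated cells and 5 for changes within a genotype. Each SE is the log2 fold change over the square root of F. DESeq2 1.42.0, limma 3.58.1 on log2(RPKM + 0.1) or log2(RPKM + 1), size factors, no filter, the model with most reads, fewer libraries and a replicate block were alternatives. In tests on simulated data with 200 changed genes, the fit of ES cells over 12044 genes found 97% of 2-fold and 100% of 4-fold changes, the 3-genotype test of differentiation over 13429 genes 28% and 82%, and the difference of KO and WT changes 0% and 52%. Intervals and floors (3 reads per library) cover counting error only. Replicate counts differed beyond sampling noise in each genotype (chi-square per degree of freedom 3.93, 14.9 and 36), so no 2 libraries were 1 deposited again. Python 3.11.15 with pandas 2.3.3, numpy 2.4.6, scipy 1.17.1 and matplotlib 3.10.9 read the tables, searched promoters and drew the plots.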

Additional observations from a re-analysis of the deposited data

Results flagged for a closer look

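For 17 of the germline genes the log2 change on differentiation differed between a mutant and WT by a test of the difference itself, in edgeR over 13429 genes. Of all genes 16.3% were called for KO minus WT and 42% for DKO minus WT, and the share called in either is not given here. The filter set a direction for Tdrd7, Taf7l and Fkbp6, so their calls support none. Of the 17 only Tex19.1 and Tdrd5 were at 1 RPKM or more in both states of WT. These differences share the WT libraries, so the KO and DKO values of a gene are not independent, and each differentiated group is 1 library at day 8 and 1 at day 12.

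In KO minus WT, Hsf2bp (2.15), Tex14 (2.20), Tdrd12 (3.34), Ddx4 (1.85), Nanos3 (2.68) and Fkbp6 (5.27) were higher, that is, fell less than in WT or rose. Lower were Tdrd7 (-3.38) and Smc1b (-2.53), both of which rose in WT. The Fkbp6 value rests on 0 reads in differentiated WT, depends on how zeros are treated and is no bound.

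In DKO minus WT the genes of the piRNA pathway and germ granule were Tdrd12 (8.51), Fkbp6 (6.27), Tdrd5 (2.39), Ddx4 (2.08), Piwil2 (1.76) and Rnf17 (1.63), all higher, and Tdrd7 (-1.86), lower. The values of Tdrd12, with 1 read in DKO ES cells, and of Fkbp6 are no bounds. Of recombination and synaptonemal complex genes, Hsf2bp (3.37), Dmc1 (1.84) and Sycp3 (3.27) were higher. Dazl (3.23), Tex14 (2.99), Nanos3 (2.91), Tex19.1 (2.56) and Tuba3a (3.60) were higher too, and Taf7l (-2.98) was lower. ES cell markers stood higher in the differentiated mutant libraries (886 to 2831 RPKM summed) than in WT (234 and 288 RPKM), and their part in these differences was not tested.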

How the results depend on the processing

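Of 123 called changes of single genes 74 kept their call and direction in every alternative run. Of 1942 values under alternatives 202 lost their call, 167 of them on leaving out a library, and 1 reversed: Fkbp6 in KO minus WT change was -0.80 in limma on log2(RPKM + 1). The replicate numbers did not pair the libraries (correlations of deviations -0.03, -0.06 and -0.06), and the fit with a replicate block gave the same counts: 17 higher and 3 lower for KO against WT, 4 and 9 for DKO against WT, 3 and 17 for DKO against KO.

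With no filter 5 genes were lower in KO than in WT ES cells, 5 higher in DKO than in KO, 2 higher on differentiation over the genotypes and 1 lower in DKO minus WT change. DESeq2 called, in differentiated cells, 11 higher for KO against WT, 9 higher and 1 lower for DKO against WT, 1 higher and 6 lower for DKO against KO and 3 lower at day 12, and on differentiation 2 higher over the genotypes, 2 higher in KO and 2 lower in DKO. Limma with either pseudocount called 3 higher for KO against WT in differentiated cells and 1 lower in DKO minus WT change, and with 0.1 also 1 lower in KO minus WT change.

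Leaving out 1 library gave these ranges of calls. In ES cells they were 7 to 18 higher and 1 to 3 lower for KO against WT, 3 to 4 and 7 to 10 for DKO against WT, and 3 to 3 and 8 to 18 for DKO against KO. In differentiated cells they were 0 to 4 higher and 0 to 1 lower for DKO against WT and 0 to 3 lower for DKO against KO. On differentiation they were 1 to 2 higher and 4 to 13 lower over the genotypes, 2 to 3 and 13 to 18 in WT, 0 to 2 and 2 to 12 in KO, and 1 to 7 and 0 to 2 in DKO. For KO minus WT change they were 1 to 11 higher and 1 to 3 lower, and for DKO minus WT change 11 to 18 and 0 to 2. Where 1 library of a group was left, it was assumed to vary like the others. Of all genes, DESeq2 called 14.2% for KO against WT and 24.3% for DKO against WT in differentiated cells. Reads limit genes under 1 RPKM, whose levels rest on few reads.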
